A study of Oncorhynchus kisutch with 226 samples.

Results

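The 150 microarray probes described here stood higher in the liver of coho salmon at 2 life stages, river parr and fish caught at sea in spring, than at the other 4. They were taken from 16802 probes measured on at least 80% of 226 arrays, out of 43567 on the table. For each probe the mean log2 ratio was formed for each stage, the 6 means were sorted, and the widest gap between neighbours was found. In 617 probes that gap put parr and spring fish above smolts and above fish of ocean summer, fall and winter. The gap was at least 0.4 in 281 of them, and the 150 with the widest gap were kept. The probes were thus selected on their measured stage means, and differences between stages are given as a description with no test.

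Coho salmon (Oncorhynchus kisutch) hatch in rivers and live there as parr, then turn silvery and change their salt handling as smolts, and migrate to sea. The liver supplies most plasma proteins, stores and releases glucose and lipid, and answers to growth hormone and thyroid hormone, which shift during smolting. Fish caught in ocean spring have only recently left the river, and those of summer to winter have grown at sea for longer.

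Each array compared the liver RNA of 1 fish with a pool of all liver samples. The 8 parr were hatchery fish of the Chilliwack River from 2008. The 54 smolts were 8 wild Chilliwack fish from 2008 and, from 2009, 10 hatchery and 10 wild fish of the Capilano River, 9 of the Chehalis hatchery, 10 of the Puntledge hatchery and 7 wild fish of the Salmon River. The 14 spring fish were wild, from the southern Strait of Georgia (the inland sea east of Vancouver Island) and from 2009. The 67 summer, 71 fall and 12 winter fish were hatchery and wild fish of the Strait and of the west coast of Vancouver Island, mostly from 2009. Parr were the shortest fish, with a fork length of 5.1 ± 0.262 cm (SD), and spring fish (11.3 ± 1.07 cm) were close in length to smolts (11.2 ± 1.38 cm). Winter fish were the longest, at 34.7 ± 2.13 cm. The parr lay on 2 slides that held no other stage, so for parr the stage cannot be told apart from slide. The smolts of the same river and year were wild, so against them it cannot be told apart from origin either. Sex was not recorded for the parr and spring fish. Probe identifiers gave only the column and row of a spot, so no gene is named, and the liver label could not be set against marker genes.

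All values below were read as log2 ratios, with 1 unit as a doubling. The log base and the direction, fish over pool, are likely but not stated by the submitters. The direction rests on the labelled dyes, which were the same on all arrays. Both rest on the fall of a probe's mean with its variance. Its slope was -0.364, where a pool of the samples as denominator and a base of 2 give -0.347. With the other numerator every "higher" would read "lower". The lowest correlation of 2 arrays was r = -0.51, and 756 of 25425 pairs lay below -0.3. Between 12760 and 30826 probes were measured per array, and winter arrays had a mean of 25538 against 21023 to 22014 at the other stages.

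The widest gap of the 150 probes ran from 0.54 to 1.28, with a median of 0.67 (a 1.59-fold step). At the border of the choice, C108R001 was the last probe kept, with means of 0.26 in parr and 0.36 in spring, and of -0.28 (summer), -0.40 (smolts), -0.46 (fall) and -0.76 (winter) below the gap. The first probe left out, C258R063, had a mean of 0.39 in both parr and spring, and -0.15 (summer), -0.27 (fall), -0.33 (winter) and -0.45 (smolts) below it. The gap of both rounds to 0.54. The 131 probes left out at that border thus have the same pattern with a slightly narrower step. Of the 150, 74 were measured on every array, and the sparsest was measured on 184.

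The probe with the widest gap was C031R081. Its ratio ran from 0.13 over a median of 1.02 to 2.32 in the 8 parr (mean 1.01 ± 0.74) and from -1.86 over 1.09 to 2.46 in the 14 spring fish (mean 1.03 ± 1.05). It ran from -3.75 over -1.30 to 2.20 in the 54 smolts (mean -1.04 ± 1.69), from -2.58 over -0.14 to 2.28 in the 67 summer fish, from -2.59 over -0.87 to 1.98 in the 71 fall fish, and from -2.78 over -0.88 to -0.03 in the 12 winter fish. Every parr was above every winter fish and only 1 of the spring fish was not, while smolts reached from below the lowest winter fish to near the highest parr. Of the 204 fish of the 4 lower stages, 20 lay above the spring median.

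C187R163 was the next, with a gap of 1.25. It ran from 0.20 over 0.83 to 1.17 in parr, from -1.94 over 1.17 to 2.90 in spring and from -4.59 over -1.52 to 2.13 in 52 smolts with a value. It ran from -2.93 over -0.35 to 1.83 in summer, from -3.89 over -1.52 to 1.45 in fall and from -3.38 over -0.94 to -0.17 in winter. The parr were close together and all above 0, whereas some spring fish lay among the winter fish. Here 11 of 198 lower-stage fish lay above the spring median.

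Over the 150 probes, the median of the stage means was 0.69 in parr and 0.65 in spring. It was -0.17 in summer, -0.34 in smolts, -0.42 in fall and -0.64 in winter, while the same median over all 16802 probes lay between -0.06 and 0.01 at each stage. In parr the means reached from 0.07 to 1.89 and in spring from 0.17 to 1.44. All 150 were above 0 at both stages, against 44.2% and 45.6% of all probes. The choice by stage means largely fixed this, so it is no finding. Above 0 were also 22 in smolts, 26 in summer, 13 in fall and 3 in winter. In bulk liver, fewer cells of a type and less RNA per cell cannot be told apart.

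The choice of probes kept parr and spring means less far apart than the gap below them, so their closeness is no finding. The parr mean was the higher of the pair in 81 probes and the spring mean in 69, and in 96 they were less than 0.25 apart.

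The other stages did not form 1 level. Their 4 means spread by 0.08 to 1.70 within a probe, with a median of 0.53. Summer was the highest of them in 90 probes, smolts in 46, fall in 10 and winter in 4. Winter was the lowest in 106, smolts in 22, fall in 21 and summer in 1. Within stages the probes also varied more than most: the median SD between fish was 0.86 in smolts, against 0.61 over all probes, and 0.72 against 0.53 in summer. In parr the SDs were closer, 0.52 against 0.49.

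Fish of the lower stages overlapped with the spring fish. In C031R081 the medians of all 4 lower stages lay within the spring range. The shares below count only fish above the spring median, which is part of that overlap. For the median probe, 9.6% of the 204 lower-stage fish lay above the spring median, and this share ran from 0.49% to 30.4%. By stage it was 11.3% of smolts, 11.6% of summer fish, 5.76% of fall fish and 0 of the 12 winter fish.

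The 150 probes varied together from fish to fish within a stage. The choice used only stage means, but these are means of the same fish, so the agreement is not independent of the choice. Among the 74 measured on every array, the median correlation of 2 probes within a stage was highest in summer (0.65) and smolts (0.64), followed by parr (0.56), fall (0.53) and spring (0.47), and was 0.30 in winter. For all 7169 probes measured on every array it was between 0 and 0.03. Points in these correlations share array, dye and depth, and no test is attached. The leading axis of variation within stages, over the 7169 probes, held 33.2% of the variance. All 74 probes lay on the same side of it, against 52.0% of all probes, with a median correlation of 0.67 against a median size of 0.46 over all. The spots were spread over the array: they occupied 123 columns, a split at the median column and row put 40, 33, 39 and 38 in the 4 parts, and 2 pairs were neighbours.

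The mean of the 150 probes was therefore taken in each fish. It was 0.72 ± 0.39 in the 8 parr (0.09 to 1.24) and 0.69 ± 0.46 in the 14 spring fish (-0.11 to 1.41). In spring, 12 of 14 fish were above 0, and the fish of Puget Sound stock had the lowest value. The mean was -0.37 ± 0.70 in smolts (-1.86 to 0.94), -0.17 ± 0.56 in summer (-1.53 to 1.01), -0.43 ± 0.50 in fall (-1.28 to 0.64) and -0.63 ± 0.33 in winter (-1.17 to -0.26). No winter fish reached 0.

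Some stages could be set side by side with river, area or stock held alike, again as a description. The choice used these same fish, so the directions below follow in large part from it. In Chilliwack fish of 2008, hatchery parr were above wild smolts in all 150 probes, by 0.32 to 3.47 (median 1.20, against -0.02 over all probes). In wild southern Strait fish of 2009, spring was above summer by 0.04 to 1.19 (median 0.44). In east coast of Vancouver Island stock (labelled ECVI), wild spring fish were above the smolts, all of the Puntledge hatchery, by a median of 1.40 and above hatchery and wild summer fish by 1.02. On 7 slides that held spring fish beside other stages, the mean of the 150 probes was higher in the spring fish on all 7, by 0.16 to 1.92 (median 1.18). None of the 14 other fish there reached the lowest of the 10 spring fish on its own slide.

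Among smolts the probes varied by river and origin. The mean of the 150 probes was 0.51 ± 0.40 in the 10 Capilano hatchery smolts (-0.42 to 0.94) and -0.31 ± 0.45 in the 10 wild ones (-1.21 to 0.27). It was -0.01 ± 0.50 in Chehalis hatchery smolts, -0.65 ± 0.42 in wild Chilliwack smolts, -0.79 ± 0.46 in Puntledge hatchery smolts and -1.22 ± 0.43 in wild Salmon River smolts. Of the 6 groups, the Capilano hatchery group had the highest mean in 127 of the 150 probes, and the Salmon River group had the lowest in 116. Over all probes the same held for 29.3% and 20.4%. The Capilano hatchery mean was at or above the spring mean in 44 probes, and the spring mean was higher than it by a median of 0.20.

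The first test asked whether hatchery and wild smolts of the Capilano River differed. Over all probes, limma called 24.6% higher and 24.8% lower in hatchery fish at a Benjamini-Hochberg adjusted p below 0.05. Of the 150 probes, 89 were higher and 0 lower, and 144 had a positive difference, with a median of 0.80 against 0.03 over all probes. The probes varied together within stages (median correlation 0.64 in smolts, among the 74 on every array). Counts that fall on the same side, here and in the tests below, are therefore not separate results. C187R163 ran from -0.79 over 0.62 to 2.13 in the hatchery fish and from -4.07 over -1.25 to 0.74 in the wild fish. The groups overlapped, with 4 hatchery fish above every wild one, and the fitted difference was 2.20 (SE 0.69, limma adjusted p = 0.0123). C109R011 ran from -0.08 over 1.46 to 2.43 in hatchery fish and from -2.22 over -0.44 to 1.28 in wild fish. Here 7 of 10 hatchery fish stood above every wild fish, and the difference was 2.19 (SE 0.51, limma adjusted p = 0.00155). Slide cannot be told apart from origin here, since no slide held both groups. The hatchery smolt with the lowest mean (-0.42) stood apart from the other 9, and without it 107 probes were higher and 0 lower, with 53.7% of all called in either direction.

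The same 10 fish were then set against the 19 smolts of the Puntledge and Chehalis hatcheries. Over all probes, 13% were higher and 13.7% lower in Capilano fish. Of the 150, 90 were higher and 0 lower, with a median difference of 0.82 against -0.05 over all probes. C031R081 ran from -0.70 over 1.35 to 2.20 in the Capilano fish and from -3.75 over -1.79 to 1.47 in the others. The difference was 2.93 (SE 0.49, limma adjusted p = 0.00033), and 13 of the 19 others lay below every Capilano fish. C179R159 ran from -0.18 over 1.31 to 2.76 and from -3.72 over -1.67 to 1.04, a difference of 2.86 (SE 0.45, limma adjusted p = 0.000233). Against Puntledge alone 101 probes were higher (12.9% of all), and against Chehalis alone 27, with 0 lower (7.45% of all higher and 7.65% lower). Capilano arrays had more measured probes than the others, 21336 against 19597, and no slide held both groups. Adjusted for that number, 110 were higher, with 37.3% of all called in either direction. Without the low Capilano fish 106 were higher, with 34% of all called. Both Capilano comparisons share the hatchery fish, so they are not independent.

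Wild smolts of the Salmon and Capilano Rivers, a comparison chosen after the river means were seen, differed in few probes of the whole table, with 1.01% higher and 1.28% lower in Salmon River fish. Of the 150, 0 were higher and 20 lower, with a median difference of -0.78. No slide held both rivers.

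In spring, the 8 ECVI fish had a mean of the 150 probes of 0.82 ± 0.40 and the 6 of other stocks 0.52 ± 0.52. By limma 0 of the 150 probes passed the test, as did 0% of all. At an unadjusted p below 0.05 there were 7 of the 150 and 1088 of all 16802. The median difference was 0.24, and it was -0.86 on the 1 slide that held both, where only 1 fish was of ECVI stock. In simulated ratios none of the changes of size 1 was recovered in this comparison. The simulation changed few probes and took a probe's SD from fish of all stages, so it does not set what was detectable. The 0 calls do not show that the stocks were alike.

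Taken over all stocks, summer fish differed by area. In the Strait in 2009, the mean of the 150 probes was 0.11 ± 0.50 in 16 southern fish (-0.79 to 0.76) and -0.45 ± 0.41 in 36 middle and northern fish (-1.53 to 0.31). With origin as a covariate, 11.5% of all probes were higher and 12.7% lower in the south. Of the 150, 64 were higher and 0 lower, with a median difference of 0.47 against 0 over all. C242R123 ran from -1.20 over 0.47 to 1.54 in 16 southern fish and from -1.89 over -1.14 to 1.51 in 32 others with a value. The groups overlapped over most of their range, and the difference was 1.22 (SE 0.25, limma adjusted p = 0.00132). C123R154 ran from -1.68 over 0.30 to 1.28 and from -2.45 over -1.36 to 2.03, a difference of 1.01 (SE 0.28, limma adjusted p = 0.00932). Stocks were unevenly spread, with 9 ECVI fish in the south and 7 elsewhere, and 3 Fraser fish against 17. The ECVI fish elsewhere were all of hatchery origin, and most in the south were wild. The 3 southern Fraser fish had means of the 150 probes of -0.785, -0.695 and -0.119, within the range of the 36 other fish. Area within a stock was not tested. With stock as a further covariate 42 probes were higher (6.3% of all). Within the 5 slides that held both areas, with slide as a fixed term, 0 of the 150 and 0 of all probes passed the test and the median difference was 0.06.

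For fall fish of the same areas, the share of called probes was near that of the whole table. The mean of the 150 probes was -0.57 ± 0.44 in 25 southern fish and -0.42 ± 0.54 in 28 others. Over all probes 2.71% were higher and 4.02% lower in the south. Of the 150, 0 were higher and 8 (5.33%) lower, with a median of -0.09. C123R154, which was higher in the south in summer, ran here from -2.20 over -1.05 to 1.69 in the south and from -1.23 over 0.03 to 1.87 elsewhere. The difference was -1.13 (SE 0.25, limma adjusted p = 0.00534). C054R078 ran from -2.77 over -1.31 to 0.53 and from -2.01 over -0.45 to 2.08, a difference of -1.01 (SE 0.31, limma adjusted p = 0.0373). Within the 3 slides that held both areas 0 of the 150 passed, and the median turned to 0.24. The change of the southern effect from summer to fall, tested as an interaction, was past the threshold in 42 probes, all lower in fall (12.5% of all higher, 11.9% lower). Its median was -0.54, and in C123R154 it was -2.16 (SE 0.39, limma adjusted p = 0.000537). Stock was not a covariate in the fall fit or the interaction. In fall 6 ECVI fish were in the south and 12 elsewhere, against 9 and 7 in summer. The interaction was not tested with stock as a covariate or with slide as a fixed term.

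Fall fish were also compared by stock, a comparison chosen after the stock means were seen. The mean of the 150 probes was -0.08 ± 0.41 in the 20 fall fish of ECVI stock, -0.65 ± 0.39 in 24 of Fraser stock and -0.68 ± 0.40 in 15 of southern mainland stock (S_Main). In the Strait in 2009, 18 ECVI fish were set against 34 of the other stocks, and 22.4% of all probes were higher and 21.7% lower. Of the 150, 127 were higher and 0 lower, with a median of 0.66 against 0.03 over all, and 149 were positive. With the southern Strait as a covariate 128 were higher and 0 lower (21.5% of all higher, 21.2% lower). Only 1 slide held both groups, and 1 fish on it was of ECVI stock, so stock can hardly be told apart from slide here. With slide as a fixed term the median was 0.58, which rests on that fish. In summer the same stocks, 16 against 35 fish, gave 0 called probes by limma among the 150 and 0% of all (2 and 1131 at an unadjusted p below 0.05), with a median of 0.08. The change of the stock difference between seasons was not tested.

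Wild fish of the west coast were set against those of the Strait, and in summer the share called higher was near that of the whole table. In summer the mean of the 150 probes was 0.23 ± 0.72 in 9 west coast fish and -0.14 ± 0.55 in 27 Strait fish. West coast fish had 2.61% of all probes higher and 3.7% lower, and of the 150 the counts were 4 (2.67%) and 0. The median difference was 0.38 and 141 were positive. C078R148 ran from -0.40 over 1.03 to 1.39 in 8 west coast fish with a value and from -1.77 over -0.53 to 1.03 in 26 Strait fish, a difference of 1.31 (SE 0.29, limma adjusted p = 0.0111). C160R078 ran from -0.60 over 0.91 to 1.76 and from -1.26 over -0.39 to 0.96, a difference of 1.10 (SE 0.25, limma adjusted p = 0.012). In each, 4 west coast fish stood above every Strait fish. West coast arrays had fewer measured probes, 19902 against 22026, no slide held both areas, and 8 of the 10 summer fish of the west coast were of Columbia stock. Adjusted for measured probes, 2 of the 150 were higher, with 1.25% of all called in either direction.

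In fall the means were -0.19 ± 0.52 in 9 west coast fish and -0.54 ± 0.44 in 27 Strait fish. Over all probes 4.03% were higher and 3.91% lower, and of the 150 the counts were 12 and 0, with a median of 0.38. C078R148 ran from -0.60 over 0.10 to 1.57 and from -1.35 over -0.76 to 1.00, a difference of 1.00 (SE 0.25, limma adjusted p = 0.0204). C098R064 ran from -0.73 over 0.17 to 1.66 and from -1.70 over -0.80 to 0.94, a difference of 0.98 (SE 0.27, limma adjusted p = 0.0285). Of the 9 west coast fish, 2 were of ECVI stock and the others of stocks not among the 27 Strait fish. For most of them area thus cannot be told apart from stock. West coast fish were also longer, with a mean of 29.5 cm against 23.3 cm. The 1 slide with both areas held 1 west coast fish and 1 Strait fish, with means of the 150 probes of -1.11 and -0.33. With slide as a fixed term the median was -0.70, which rests on these fish. By limma 0 of the 150 passed the test of a change of the west coast effect between the seasons (2 at an unadjusted p below 0.05, and 1543 of all). These area comparisons, and those of origin and year below, share Strait fish.

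At sea none of the probes passed the test of hatchery against wild origin. In summer Strait fish the mean of the 150 probes was -0.43 ± 0.41 in 25 hatchery and -0.14 ± 0.55 in 27 wild fish. By limma 0 of the 150 and 0% of all passed, with 20 and 1260 at an unadjusted p below 0.05. The median difference was -0.21, and 148 were negative. Area was not a covariate, and 11 of the wild but only 5 of the hatchery fish were from the southern Strait. In fall 0 of the 150 and 0% of all passed by limma (1 and 624 unadjusted), with a median of 0.11. In the south the fall mean of the 150 probes was -0.73 ± 0.37 in hatchery and -0.42 ± 0.47 in wild fish. In the middle and north it was -0.20 ± 0.59 and -0.64 ± 0.40, the opposite order. Area and stock were not covariates, and origin within area was not tested. The origin effect of Capilano smolts exceeded that of summer Strait fish in 87 probes and was below it in 0 (25.2% and 24.8% of all), with a median of 0.93. No slide held both Capilano groups, so in these smolts origin cannot be told apart from slide. In C107R160 the difference of effects was 2.65 (SE 0.41, limma adjusted p = 5.99e-06).

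Few of the probes passed the tests of year, and none those of sex and body length. In wild fall fish of the Strait, 1.71% of all probes were higher and 1.29% lower in 2009 than in 2008, and of the 150 the counts were 0 and 2 (1.33%), a share near that of the whole table. C078R148 ran from -1.35 over -0.76 to 1.00 in 26 fish of 2009 and from -0.67 over 0.25 to 0.97 in 8 of 2008, a difference of -0.91 (SE 0.25, limma adjusted p = 0.0378). C060R025 ran from -1.27 over -0.45 to 0.88 and from -0.33 over 0.52 to 1.02, a difference of -0.82 (SE 0.23, limma adjusted p = 0.0369). No slide held both years, and after quantile normalization neither probe passed and 0 of the 150 did, with 235 of all called in either direction. Between males and females of the Strait, limma called 0 of the 150 and 0.00595% of all higher (4 and 453 unadjusted). For fork length it called 0 of the 150 in smolts (4 unadjusted, 606 of all), in spring (7 and 531), in summer (50 and 1132) and in fall (6 and 1265). In each of these at most 0.00595% of all probes passed. The summer slopes were negative in 141 of the 150, with a median of -0.06 per cm. Area was not a covariate, and southern fish had a mean length of 17.1 cm against 18.7 cm in the middle and north. The slope within an area was not tested.

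Across the 15 planned comparisons, 135 of the 150 probes passed at least 1 test, in either direction, as did 67.6% of all probes. Other patterns chosen in the same way can be set beside the 89 higher and 0 lower for Capilano origin and the 64 and 0 for summer Strait area. Of the 150 lowest in parr and spring, 3 were higher and 105 lower in Capilano hatchery than wild smolts, and 0 were higher and 72 lower in southern than other summer Strait fish. Of the 150 highest in spring alone, the counts were 53 and 1, and, close to those above, 67 and 0. Of the 150 highest in parr alone, they were 34 and 32, and 10 and 4. The difference between these sets was not tested.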

How the data were processed

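Per the labels' protocols, RNA of each fish was amplified and labelled with one fluorescent dye and hybridized beside a liver pool in a second dye. The authors deposited a ratio per probe for each array, which was read here as log2. How arrays were scanned and normalized, the log base, the numerator and the rule for empty cells (49.9% of the table) were not stated in the sources used here. Array medians lay between -0.01 and 0.06. A second deposited table and the planned gene lists were not used, the lists because probes carry no gene names here. The number of arrays limits the precision.

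Each comparison was fitted per probe on all 16802 kept probes with limma 3.58.1 (lmFit and eBayes, R 4.3.3), with slide as a random block (correlation 0.186, from 3000 probes) over 60 slides, and Benjamini-Hochberg adjustment over all probes. Origin was a covariate for Strait area, season for sex, and smolt group for smolt length. Each array was a separate fish. Named were the 2 probes with the widest gap, those at the border of the choice, and up to 2 called probes per direction with the largest change; for an interaction the largest was named. The probes, lists and tests were chosen with earlier results of these data known. On simulated ratios, with 100 changed probes per size, a change of 1 was recovered in 18% for Capilano origin and 36% for the hatcheries. It was recovered in 76% for summer Strait area and 0% for spring stock. In all of these but spring stock, the data held many more called probes than the simulation changed. The simulated SD of a probe came from fish of all stages, so these shares do not set what was detectable. Alternatives left out the block, made slide a fixed term, quantile normalized the arrays, kept probes on every array, or added the number of measured probes. Those on stock, single hatcheries, the low smolt and interactions were chosen after seeing the data.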

Additional observations from a re-analysis of the deposited data

Results flagged for a closer look

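In 34 groups of 4 to 10 fish, 4 held a fish far from the rest by Dixon's test, and chance alone gives about 1 in 20. One wild fall fish of the northern Strait had a mean of the 150 probes of 0.19, and the other 3 of its group lay at -0.83 or below. One hatchery winter fish of the west coast lay at -0.93, with 30826 measured probes, the most of any array. One Capilano hatchery smolt lay at -0.42, with 25352 measured probes, and the nearest of the other 9 lay at 0.24. C078R148 was -0.40 in one wild summer fish of the west coast, and the next of the 8 was at 0.79. None of these fish was left out of the values above, except where stated.

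By the interaction test, the effect of hatchery origin was higher in Capilano smolts than in summer Strait fish in 87 of the 150 probes. It was lower in 0, and over all probes 25.2% were higher and 24.8% lower. In the Capilano smolts, all of 1 river, origin cannot be told apart from slide. The effect of the southern Strait was lower in fall than in summer in 42 and higher in 0, with stock not a covariate. Over all probes 12.5% were higher and 11.9% lower. With slide as a fixed term the median southern difference was 0.06 in summer and 0.24 in fall, the opposite order. The interaction was not tested with slide as a fixed term.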

How the results depend on the processing

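Of 75 counts of called probes under an alternative, 58 stayed within 1.5 times the reported one. That number includes the comparisons with 0 calls in every fit (spring stock, origin at sea, sex and fork length). There 0 set against 0 counts as unchanged, so the 58 do not measure how steady the calls were. Of 52 values of single named probes, 44 stayed past the test with the same sign and 8 kept the sign without passing. Restricted to probes measured on every array, 74 of the 150 were left, so a lower count there is no drop in share. The calls were 48 (Capilano origin, 53.7% of all called in either direction), 44 (hatcheries, 27.7%) and 42 (summer Strait area, 33.1%). The other calls were 7 (fall west coast, 5.19%), 3 (fall Strait area, 5.54%) and 0 (year, 1.79%). Without the slide block they were 8 (summer west coast), 27 (fall west coast), 13 (fall Strait area) and 6 (year). After quantile normalization they were 5 for fall west coast and 0 for year, and with measured probes as a covariate 2 for summer west coast. With slide fixed they were 0 for summer Strait area and fall Strait area, where few slides hold both groups. For fall west coast that fit rests on 1 slide, with 1 fish of each area. Against Chehalis alone Capilano gave 27. Over all probes, the calls of summer west coast went from 1060 to 200 after quantile normalization, 210 with the covariate and 1928 without the block; those of fall west coast from 1334 to 425 and 2033; those of year from 505 to 235 and 1819; those of fall Strait area from 1132 to 2369 without the block. Those of the hatcheries went from 4480 to 2264 after quantile normalization. Choosing by stage medians kept 96 of the 150, and by probes on every array 74. The choice kept 117 after quantile normalization, 127 without the Capilano hatchery smolts, 119 and 116 without the parr of either slide, and 125 without wild summer fish of the southern Strait and west coast. Beyond these constructions, the cause was not tested. A fixed slide could not be fitted for Capilano origin, the hatcheries, summer west coast and year, and the second deposited table was not run. No paired analysis was possible because the labels carry no replicate numbers shared by the groups; fits with slide as a fixed term compare fish within slides.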
